A study of Mus musculus with 32 samples.

Results

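The 44 genes described here code for proteins of the cell cycle and of DNA replication. They were taken by name and fall into 24 genes of the step from G1 into S phase (G1/S genes) and 20 genes of G2 and mitosis (G2/M genes). All 44 passed the filter on low counts, among 16760 genes tested of 55414 in the table. The cells were cardiac fibroblasts of C57BL/6J_Pkm2fl/fl mice at passage 1, grown before the experiment in medium with serum and 20 ng/ml bFGF. They received LacZ, the control, or iCre, a Cre recombinase, and all groups share the floxed Pkm genotype. How LacZ and iCre were delivered is not given in the sources used here. The 4 conditions in each vector are titled SS, FGF (bFGF, 20 ng/ml), ILB (IL-1b, 15 ng/ml) and TGFB (TGFb, 10 ng/ml), each for 24 h without serum, with 4 libraries a group and 32 in all. SS is not spelled out in the labels and is used here as the group to which no factor is named as added. Groups follow the sample titles: the treatment tags of the 16 LacZ libraries name other treatments than their titles do, and the protocol text names TAK1fl/fl as the mice and TNFa as a further treatment, so the assignment of the LacZ libraries rests on their titles.

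Library totals ran from 20736203 to 34995038 counts. Values are CPM, counts scaled to a common library size after TMM, a factor per library that sets the bulk of genes level, and are given in the order of replicate numbers 1 to 4. Fold changes are log2 ± SE from edgeR's quasi-likelihood test over 4 libraries against 4, and a gene is called at a Benjamini-Hochberg adjusted p under 0.05 over all 16760 genes. Nothing in the labels says whether a number is a mouse, an isolation or a day, so p-values measure the spread between these libraries. The 10 fibroblast markers summed to 19210 to 64580 CPM per library. Leukocyte markers (12 of 12 detected, none at 0) summed to 33.6 to 1028 CPM, and cardiomyocyte markers, of which 3 of 8 passed the filter, to 4.37 to 127.6 CPM. Pkm, the targeted gene (chr9:59656368-59679375, GRCm38), was lower in iCre than in LacZ in 16 of 16 matched pairs (equal condition and number), with an average log2 difference of -0.50 ± 0.11 (edgeR adjusted p = 0.0745). Map3k7, the gene of TAK1, was lower in iCre in 13 of 16 pairs, with an average log2 difference of -0.08 ± 0.07 (edgeR adjusted p = 0.855). Counts per gene cannot show which Pkm exon was kept.

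As background, a quiescent fibroblast that meets a growth factor makes cyclin D1, whose kinase partners phosphorylate the pocket proteins Rb1, Rbl1 and Rbl2 and so release E2F transcription factors. E2F factors switch on the G1/S genes: cyclin E, the MCM helicase and its loaders, and the enzymes that make deoxynucleotides. Later, the MuvB complex joins Mybl2 and Foxm1 and drives the G2/M genes through a promoter element called CHR, which in resting cells is held by the repressive DREAM complex. RNA of the G2/M genes is therefore commonly read as a mark of dividing cells. In bulk RNA, fewer dividing cells and less RNA per dividing cell cannot be told apart.

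The promoters are shown because the classes held these elements at different shares. Of the 44 genes, 34 have an entry in RefSeq's table for GRCm38.p6, with 37 start sites, each a window from upstream of the start to just after it. The 3 elements were searched on both strands: the E2F site as TTTNNCGC with C or G at each N, CHR as TTTGAA or TTCGAA, and the CCAAT box as CCAAT. An E2F site stood in 9 of 22 G1/S promoters (40.9%), in 1 of 15 G2/M promoters (6.67%) and in 2.26% of all 32851 promoters of the table. CHR letters stood in 5 of 22 G1/S promoters (22.7%), in 11 of 15 G2/M promoters (73.3%) and in 19.2% of all. A CCAAT box, the element of NF-Y, stood in 77.3% of the G1/S, 86.7% of the G2/M and 37.4% of all promoters, and CHR with a CCAAT box in 22.7%, 73.3% and 7.52%. A match of letters is a description and not a bound site.

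The printed promoters belong to 3 subunits of the MCM helicase and to Tyms, which the results below treat apart from each other, and to 3 G2/M genes. Capitals mark matches of the 3 elements, some of which overlap, and each sequence runs 5′ to 3′ along the gene (RefSeq, GRCm38.p6).
Mcm5 (chr8:75109259-75109558, plus strand): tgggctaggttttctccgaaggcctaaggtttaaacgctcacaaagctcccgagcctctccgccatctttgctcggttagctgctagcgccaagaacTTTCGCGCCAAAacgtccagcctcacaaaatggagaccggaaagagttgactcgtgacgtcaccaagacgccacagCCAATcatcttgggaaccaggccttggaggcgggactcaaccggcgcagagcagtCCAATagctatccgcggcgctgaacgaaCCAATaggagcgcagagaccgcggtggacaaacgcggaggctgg
Mcm6 (chr1:128359656-128359955, minus strand): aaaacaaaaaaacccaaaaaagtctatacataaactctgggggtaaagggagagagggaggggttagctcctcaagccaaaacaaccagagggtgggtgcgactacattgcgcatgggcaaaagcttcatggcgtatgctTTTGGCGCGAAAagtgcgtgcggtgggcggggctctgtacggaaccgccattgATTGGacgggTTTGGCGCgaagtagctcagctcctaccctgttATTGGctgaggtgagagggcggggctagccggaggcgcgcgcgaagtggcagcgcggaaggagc
Mcm7 (chr5:138171834-138172133, minus strand): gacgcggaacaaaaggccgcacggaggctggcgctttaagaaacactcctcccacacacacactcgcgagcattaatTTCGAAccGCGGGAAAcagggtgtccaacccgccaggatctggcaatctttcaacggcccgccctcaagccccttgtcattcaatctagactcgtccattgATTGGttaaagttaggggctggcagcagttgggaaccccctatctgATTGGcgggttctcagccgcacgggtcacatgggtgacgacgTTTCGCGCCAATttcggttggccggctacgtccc
Tyms (chr5:30073576-30073875, minus strand): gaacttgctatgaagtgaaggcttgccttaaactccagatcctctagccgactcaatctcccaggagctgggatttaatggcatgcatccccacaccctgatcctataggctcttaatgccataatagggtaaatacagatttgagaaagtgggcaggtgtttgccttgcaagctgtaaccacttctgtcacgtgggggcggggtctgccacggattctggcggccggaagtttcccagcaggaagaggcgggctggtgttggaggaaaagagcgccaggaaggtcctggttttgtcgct
Cdk1 (chr10:69352863-69353162, minus strand): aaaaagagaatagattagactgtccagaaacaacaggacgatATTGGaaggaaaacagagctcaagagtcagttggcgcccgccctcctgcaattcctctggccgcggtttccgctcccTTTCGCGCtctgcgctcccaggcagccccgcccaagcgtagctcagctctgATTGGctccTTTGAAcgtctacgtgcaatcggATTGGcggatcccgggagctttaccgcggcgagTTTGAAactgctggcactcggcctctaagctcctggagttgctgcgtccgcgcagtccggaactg
Cdc20 (chr4:118437294-118437593, minus strand): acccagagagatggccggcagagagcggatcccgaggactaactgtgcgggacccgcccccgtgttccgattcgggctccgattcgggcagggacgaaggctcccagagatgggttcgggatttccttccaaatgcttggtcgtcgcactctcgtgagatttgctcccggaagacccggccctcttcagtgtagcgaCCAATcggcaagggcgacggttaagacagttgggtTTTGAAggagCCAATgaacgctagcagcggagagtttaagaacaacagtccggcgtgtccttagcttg
Plk1 (chr7:122159185-122159484, plus strand): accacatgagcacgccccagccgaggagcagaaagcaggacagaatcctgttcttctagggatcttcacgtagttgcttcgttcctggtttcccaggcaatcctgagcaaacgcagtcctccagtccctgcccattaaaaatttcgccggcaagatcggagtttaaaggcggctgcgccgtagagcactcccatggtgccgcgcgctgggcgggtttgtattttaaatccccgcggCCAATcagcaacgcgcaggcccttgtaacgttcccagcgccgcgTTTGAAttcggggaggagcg
Mcm5, Mcm6 and Mcm7 each hold E2F letters, Mcm5 and Mcm6 as a pair of overlapping matches on opposite strands. A second start of Mcm7 at chr5:138171217-138171516 holds a CCAAT box and neither of the other elements. The Tyms window holds no match of the 3 elements. Cdk1 holds E2F letters, 2 CHR matches and 3 CCAAT boxes, and was the only G2/M promoter searched with an E2F site. Cdc20 and Plk1 each hold CHR letters and at least 1 CCAAT box. The promoter of the G2/M gene Ccnb1, which is not printed, holds CCAAT boxes and no CHR or E2F match.

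**Figure D1:**
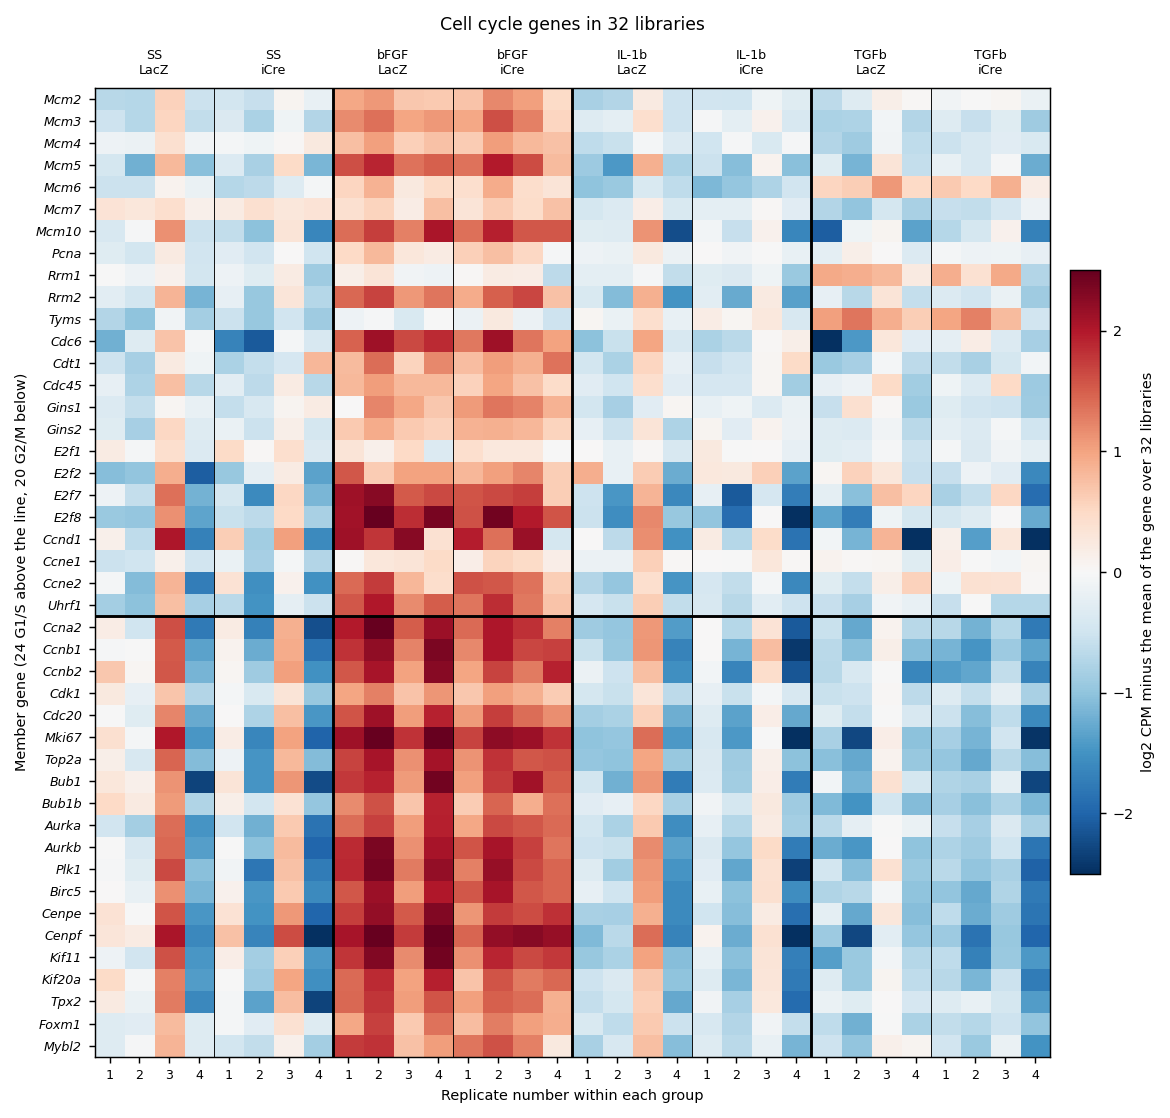
Each row is a member gene and each column a library, grouped by condition and vector and ordered by replicate number, with colour for log2 CPM minus the gene's mean over 32 libraries. The bFGF columns are red for nearly every gene, the SS and IL-1b columns of LacZ number 3 are also red, and Mcm6, Rrm1 and Tyms stand out from their class under TGFb.

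The SS libraries differed among themselves more than the bFGF libraries did, and the difference followed the replicate number. Mki67, the gene of the Ki-67 antigen of dividing cells (chr7:135689784-135716361), stood at 25.9, 18.9, 79.0 and 7.18 CPM in LacZ SS and at 22.4, 6.34, 39.7 and 4.89 CPM in iCre SS. With bFGF its levels were 85.8, 118, 69.1 and 122 CPM in LacZ and 63.7, 93.4, 87.5 and 68.8 CPM in iCre. Number 3 was thus highest and number 4 lowest in SS of both vectors, and bFGF libraries lay within a narrower range. Averaged over the 20 G2/M genes as log2 CPM relative to each gene's mean, LacZ SS libraries spanned 2.62 and LacZ bFGF libraries 0.926, and iCre SS spanned 2.40 against 0.638 with bFGF. For the G1/S genes the spans were 1.32 and 0.381 in LacZ and 0.870 and 0.679 in iCre. The median SD of log2 CPM between LacZ SS libraries was 1.15 for G2/M genes, 0.602 for G1/S genes and 0.25 over all genes tested. For G2/M genes it was 0.975 between LacZ IL-1b libraries, 0.550 between TGFb libraries and 0.475 between bFGF libraries.

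Leukocyte markers moved with the same numbers. Their sum lay between 393.6 and 1028 CPM in the 8 libraries of number 3, between 207 and 457.9 CPM in number 1, between 73.6 and 186 CPM in number 2 and between 33.6 and 91.9 CPM in number 4. None of the 12 was at 0 throughout a group. Other marker sums varied by number too. The 6 mural markers summed to 582, 664.7, 560.7 and 195.3 CPM in LacZ SS and 601.9, 621.7, 636.2 and 157.2 CPM in iCre SS. With IL-1b their lowest library was number 3, and with TGFb number 4 was the highest in LacZ. The fibroblast sum was lowest in number 4 in SS of both vectors and lowest in number 3 with TGFb. The part of these marker sets in the cell cycle levels was not tested. Within bFGF the cell cycle genes did not keep the order of the numbers: in LacZ, number 3 had the lowest G2/M average of the 4.

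**Figure D2:**
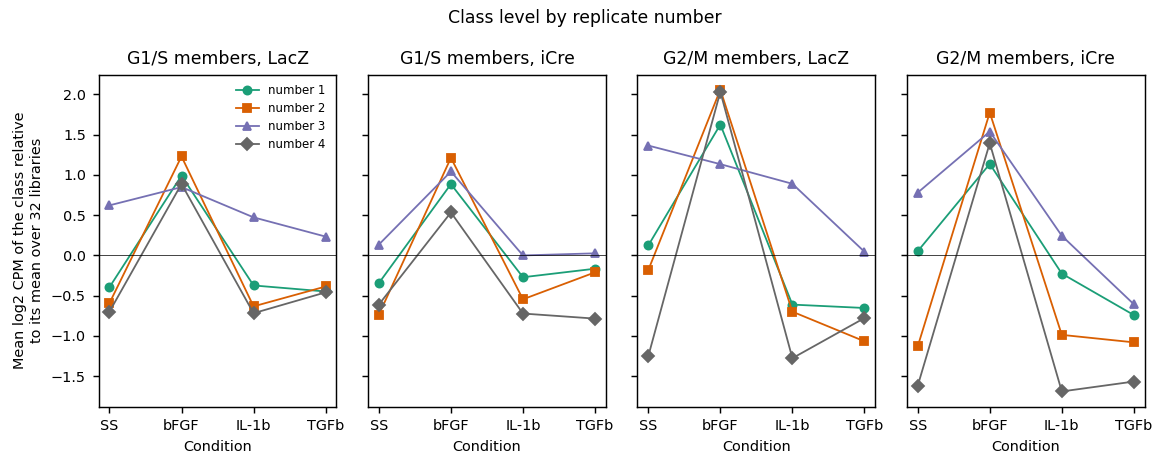
The y axis is the mean log2 CPM of the class relative to its mean over 32 libraries and the x axis the condition, with a line for each replicate number in each vector. Lines draw together under bFGF and fan out in SS and IL-1b, most widely for the G2/M genes, where number 3 is on top and number 4 at the bottom of both conditions.

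bFGF was compared with SS to ask how the growth factor moved the cycle genes. In both vectors all 44 fold changes were positive, with medians of 1.14 over the G1/S genes and 1.51 over the G2/M genes in LacZ, and 1.24 and 1.69 in iCre, beside -0.008 and -0.004 over all genes tested. In LacZ 11 of 24 G1/S genes and 1 of 20 G2/M genes rose in edgeR, where 1.64% of all genes rose, and in iCre 13 and 2, where 1.44% of all genes rose. With the replicate number as a block, 20 of 24 G1/S genes and 20 of 20 G2/M genes rose in each vector. In that fit 7.02% (LacZ) and 6.56% (iCre) of all genes rose. The block gives each number a single shift shared by all 8 groups. Its SE and p rest on a spread pooled over all 32 libraries, not on that of the same-number bFGF differences given below. With the block kept and number 4 left out, the LacZ counts were 19 and 10 and the iCre counts 21 and 19. No member fell in either fit, where 0.919% (LacZ) and 0.752% (iCre) of all genes fell without the block, which makes 2.56% and 2.2% called in either direction. Groups did not overlap for 14 G1/S genes and 1 G2/M gene in LacZ (10% of all genes) and for 17 and 16 in iCre (7.74%).

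Single libraries decided the counts without the block: 13 of 32 moved the LacZ G2/M count and 16 the iCre G2/M count by over 1.5 times. Without LacZ SS number 3 the LacZ counts were 18 G1/S and 13 G2/M genes. Without LacZ SS numbers 1, 2 or 4 the G1/S count was 2, 2 and 3, without LacZ bFGF numbers 1, 2 or 4 it was 4, 2 and 7, and each of these 6 left 0 G2/M genes. In iCre the G1/S count was 2 without SS number 1, SS number 2 or bFGF number 2 and 8 without bFGF number 3, and the G2/M count was 12 without SS number 3 and 0 without SS numbers 1, 2 or 4 or bFGF numbers 1, 2 or 3. With all libraries of number 3 left out, 18 G1/S and 17 G2/M genes rose in LacZ, and with number 3 left out and the block kept, 20 and 20 did in each vector, against 19 and 10 (LacZ) and 21 and 19 (iCre) with number 4 left out. Of the single calls without the block, those of Mcm3 and Uhrf1 held with any 1 library left out in both vectors, and each of the others was lost in 3 to 7 of 32 leave-outs in LacZ and in 3 to 21 in iCre.

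The bFGF difference varied by number. The median difference over G2/M genes in LacZ was 1.56, 2.27, -0.25 and 3.37 in numbers 1 to 4, with 1 of 20 genes higher with bFGF in number 3 and 20 of 20 in the others. In iCre it was 1.08, 2.97, 0.74 and 3.21, with 20 of 20 genes higher in each number. The G1/S medians were 1.39, 1.81, 0.16 and 1.41 in LacZ and 1.20, 1.68, 1.08 and 1.08 in iCre. The G2/M median thus exceeded the G1/S median by 0.46 and 1.96 in LacZ numbers 2 and 4 and by 1.28 and 2.13 in iCre numbers 2 and 4, and lay below it in number 3 of both vectors, with differences of -0.41 and -0.34. No constant order of the classes held across numbers.

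Of the helicase and its activators, 5 MCM subunits rose in both vectors without the block. Mcm5 (chr8:75109569-75128439), whose promoter is printed above, stood in LacZ at 5.25, 3.09, 12.7 and 3.45 CPM in SS and 22.0, 26.8, 18.4 and 20.3 CPM with bFGF, and in iCre at 5.62, 4.03, 9.94 and 3.18 CPM in SS and 18.3, 28.4, 22.4 and 12.5 CPM with bFGF. SS and bFGF libraries did not overlap in either vector, although number 3 of SS was above the other SS libraries. Its log2 fold change was 1.84 ± 0.49 in LacZ (edgeR adjusted p = 0.0400) and 1.84 ± 0.48 in iCre (adjusted p = 0.0418), and 2.58 to 13.3 CPM over the 8 IL-1b libraries and 2.99 to 8.92 CPM over the 8 TGFb libraries was its range with the other factors. The Mcm5 call was lost in 7 of 32 single leave-outs in LacZ (adjusted p up to 0.188) and in 12 in iCre (up to 0.184). Mcm3 rose by 1.40 ± 0.26 (adjusted p = 0.00548) in LacZ, a call that held with any 1 library left out, Mcm2 by 1.09, Mcm6 by 0.81 and Mcm4 by 0.76. Mcm7 passed neither with nor without the block. It stood at 31.1, 29.7, 32.4 and 26.8 CPM in SS and 32.3, 36.1, 27.6 and 40.9 CPM with bFGF in LacZ, with a log2 fold change of 0.19 ± 0.14 (adjusted p = 0.546) and 0.19 ± 0.13 with the block (adjusted p = 0.375). Mcm7 libraries of the 2 conditions overlapped.

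Mcm10, which helps to start the helicase, was found at 0.954, 1.26, 2.92 and 0.861 CPM in SS and 3.49, 4.41, 3.18 and 5.54 CPM with bFGF in LacZ and at 0.809, 0.597, 1.63 and 0.363 CPM in SS and 3.46, 5.18, 3.91 and 3.90 CPM with bFGF in iCre. Its groups did not overlap in either vector, and it rose in iCre (2.28 ± 0.60, edgeR adjusted p = 0.0403) and in LacZ with the block (1.74 ± 0.42, adjusted p = 0.00841, against 0.182 without). Its range was 0.221 to 2.88 CPM over the 8 IL-1b libraries and 0.254 to 1.39 CPM over the 8 TGFb libraries. Cdc6, which loads the helicase onto origins with Cdt1, stood at 0.477, 0.935, 2.02 and 1.15 CPM in SS and 3.45, 5.45, 3.89 and 4.55 CPM with bFGF in LacZ and at 0.323, 0.224, 1.15 and 0.893 CPM in SS and 3.11, 5.42, 3.14 and 2.46 CPM with bFGF in iCre. Every bFGF library lay above every SS library of its vector, with a rise of 2.43 ± 0.57 in iCre (adjusted p = 0.0259) and, with the block, of 2.04 ± 0.43 in LacZ (adjusted p = 0.00309, against 0.0616 without). The range of Cdc6 was 0.553 to 2.43 CPM over the 8 IL-1b libraries and 0.102 to 1.47 CPM over the 8 TGFb libraries, so the TGFb libraries reached below the lowest SS library. Cdt1 had 2.39, 1.92, 4.03 and 3.19 CPM in SS and 6.07, 9.28, 5.16 and 8.10 CPM with bFGF in LacZ and 1.98, 2.27, 2.59 and 6.20 CPM in SS and 5.99, 7.24, 6.5 and 9.02 CPM with bFGF in iCre, where number 4 of SS lay above number 1 with bFGF. It rose in LacZ (1.31 ± 0.34, adjusted p = 0.0384) and in iCre with the block (1.21 ± 0.26, adjusted p = 0.00473, against 0.0756 without), and its range was 1.98 to 5.03 CPM over the 8 IL-1b libraries and 1.78 to 3.37 CPM over the 8 TGFb libraries. Gins1 and Gins2, which complete the active helicase, rose in both vectors by 1.10 and 0.87 in LacZ and by 1.33 and 1.02 in iCre, and Cdc45 rose with the block only (1.10 and 1.08). Gins2 shares 67.3% of its exon bases with Gse1 on the other strand, and the strand setting of the counting is not given in the sources used here.

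The genes that feed and follow the replication fork split. Pcna, the sliding clamp of DNA polymerases, stood at 31.7, 28.5, 45.5 and 28.2 CPM in SS and 55.2, 69.1, 47.7 and 44.9 CPM with bFGF in LacZ and at 32.3, 28.2, 39.1 and 27.8 CPM in SS and 59.0, 66.2, 56.2 and 38.2 CPM with bFGF in iCre. The highest SS library, number 3, reached above the lowest bFGF library, number 4, in both vectors, and Pcna rose by 0.70 ± 0.17 (edgeR adjusted p = 0.0246) and 0.79 ± 0.17 (adjusted p = 0.0145). It ranged over 34.4 to 46.2 CPM over the 8 IL-1b libraries and 30.7 to 43.4 CPM over the 8 TGFb libraries. Uhrf1, which keeps DNA methylation in step with replication, was at 4.47, 3.98, 13.8 and 4.52 CPM in SS and 24.1, 33.0, 18.7 and 23.4 CPM with bFGF in LacZ and at 5.09, 2.83, 6.95 and 5.58 CPM in SS and 20.6, 29.4, 20.5 and 13.3 CPM with bFGF in iCre. The groups did not overlap, and it rose by 1.89 ± 0.36 in LacZ (adjusted p = 0.00565) and 2.03 ± 0.36 in iCre (adjusted p = 0.00478), calls that held with any 1 library left out. IL-1b and TGFb libraries held 4.97 to 12.4 and 4.53 to 8.13 CPM. Rrm2, the small subunit of ribonucleotide reductase, had 6.81, 5.94, 14.8 and 3.62 CPM in SS and 22.1, 26.4, 17.3 and 20.8 CPM with bFGF in LacZ and 7.04, 4.18, 10.1 and 4.97 CPM in SS and 15.7, 23.1, 26.2 and 13.7 CPM with bFGF in iCre, again without overlap. It passed with the block (1.71 ± 0.29, adjusted p = 0.000732 in LacZ, 1.63 ± 0.29, adjusted p = 0.00147 in iCre) and not without (0.0777 and 0.0604), with 2.83 to 15.2 CPM over the 8 IL-1b libraries and 4.39 to 10.2 CPM over the 8 TGFb libraries. The large subunit, Rrm1, was called in neither fit, at 0.18 ± 0.27 in LacZ and 0.21 ± 0.27 in iCre (adjusted p = 0.815 and 0.782). The same held for Tyms, thymidylate synthase, at 0.50 ± 0.26 and 0.58 ± 0.26 (adjusted p = 0.332 and 0.245).

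Among the regulators of S phase entry, E2f8, a repressor that E2F factors induce, had the largest G1/S fold change in LacZ. E2f8 stood at 0.824, 0.795, 3.71 and 0.610 CPM in SS and 7.23, 10.3, 6.06 and 8.80 CPM with bFGF in LacZ and at 1.09, 1.01, 2.33 and 0.893 CPM in SS and 5.05, 8.99, 6.68 and 4.98 CPM with bFGF in iCre. Its groups did not overlap, and it rose by 2.44 ± 0.62 (edgeR adjusted p = 0.0323) and 2.27 ± 0.62 (adjusted p = 0.0492), with 0.225 to 3.83 CPM over the 8 IL-1b libraries and 0.443 to 1.64 CPM over the 8 TGFb libraries. The LacZ call was lost in 6 of 32 single leave-outs (adjusted p up to 0.157) and the iCre call in 21 (up to 0.190). Its related repressor E2f7 and the activator E2f2 passed with the block only (2.15 and 1.86 in LacZ). E2f1, the best known activator, was at 43.1, 36.3, 50.3 and 29.7 CPM in SS and 46.8, 40.7, 52.5 and 29.5 CPM with bFGF in LacZ and at 52.0, 38.1, 49.9 and 29.2 CPM in SS and 50.2, 45.2, 45.1 and 37.1 CPM with bFGF in iCre. These groups overlapped widely, and its log2 difference was 0.09 ± 0.18 and 0.07 ± 0.18 (adjusted p = 0.877 and 0.906, and 0.617 and 0.568 with the block). E2f1 had 28.3 to 44.4 CPM over the 8 IL-1b libraries and 25.7 to 36.6 CPM over the 8 TGFb libraries.

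Ccnd1, cyclin D1 (chr7:144929931-144939925), the link from growth factor signal to the cycle, was at 725, 431, 2724 and 207 CPM in SS and 2894, 2289, 3236 and 866 CPM with bFGF in LacZ and at 1028, 365, 1363 and 222 CPM in SS and 2599.6, 1741, 2981 and 495 CPM with bFGF in iCre. Each bFGF library was above the SS library of its number, but the numbers lay so far apart that the groups overlapped. It rose with the block, by 1.66 ± 0.30 in LacZ (edgeR adjusted p = 0.00129) and 1.48 ± 0.30 in iCre (adjusted p = 0.00283), and gave adjusted p = 0.528 and 0.444 without it. With TGFb its levels were 633, 300.3, 1204 and 84.0 CPM in LacZ and 733, 256, 808 and 63.7 CPM in iCre, and with IL-1b 669, 423, 1486 and 233 and 769, 406, 920.3 and 187 CPM. Ccnd1 shares 23.4% of its exon bases with LTO1 on the other strand. The cyclin E genes act after cyclin D. Ccne1 had 5.55, 5.71, 8.77 and 5.78 CPM in SS and 8.22, 9.78, 10.1 and 11.2 CPM with bFGF in LacZ and 7.20, 4.51, 7.80 and 4.83 CPM in SS and 9.02, 11.9, 11.2 and 9.02 CPM with bFGF in iCre, and rose in iCre (0.76 ± 0.18, adjusted p = 0.0293), where the groups did not overlap, and in LacZ with the block (0.63 ± 0.16, adjusted p = 0.0107). With the other factors it held 7.23 to 12.3 CPM over the 8 IL-1b libraries and 6.47 to 9.10 CPM over the 8 TGFb libraries. Ccne2 had 1.91, 0.889, 3.58 and 0.538 CPM in SS and 5.36, 6.74, 3.55 and 2.69 CPM with bFGF in LacZ and 2.55, 0.634, 2.11 and 0.642 CPM in SS and 6.07, 5.87, 5.18 and 3.07 CPM with bFGF in iCre, with the groups apart in iCre. It rose with the block, by 1.57 ± 0.42 and 1.86 ± 0.42 (adjusted p = 0.0165 and 0.00585), and its range was 0.591 to 2.64 CPM over the 8 IL-1b libraries and 1.28 to 2.98 CPM over the 8 TGFb libraries.

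**Figure D3:**
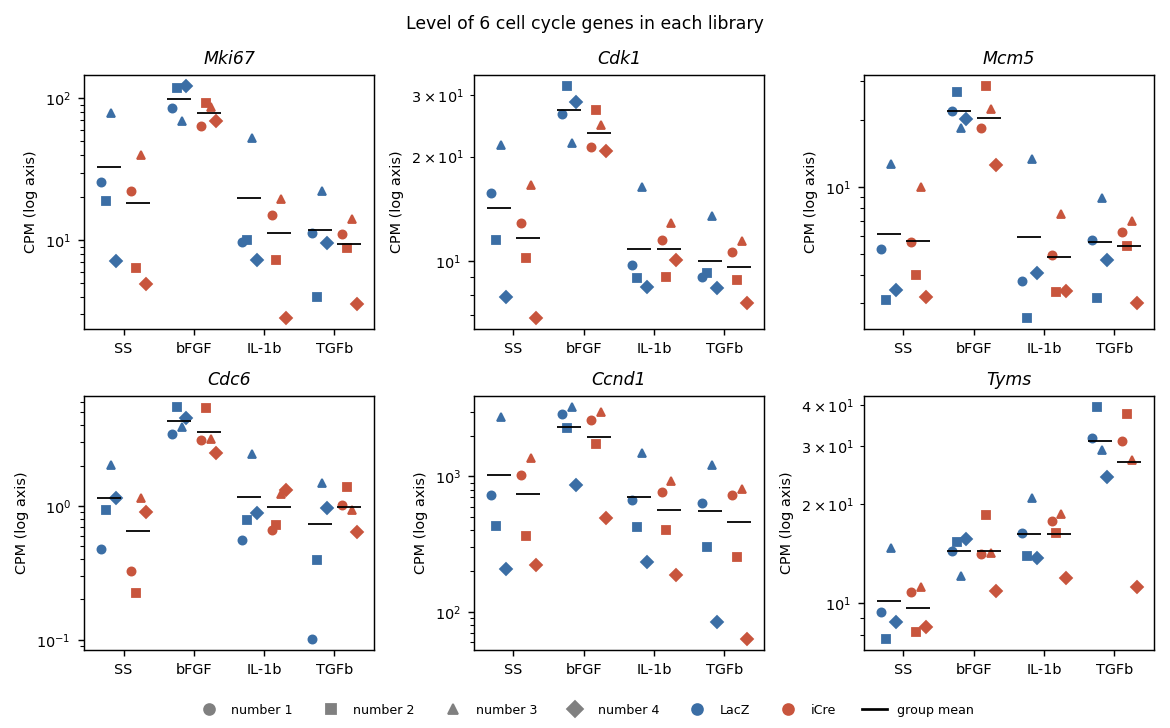
Each panel shows a gene in CPM on a log axis for the 4 conditions, with marker shape for replicate number, colour for vector and a bar for the group mean. Under bFGF the Mcm5 and Cdc6 markers of each vector lie above those of SS, the Mki67 marker of LacZ SS number 3 (79.0 CPM) lies among the bFGF markers, in SS number 3 lies above number 4 for Mki67, Cdk1, Mcm5 and Ccnd1, and Tyms is highest under TGFb except in iCre number 4.

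With the replicate block all 20 G2/M genes rose with bFGF in each vector, although 19 of 20 were not higher in LacZ number 3. Cdk1, the kinase that starts mitosis (chr10:69335146-69352938), had 15.7, 11.6, 21.6 and 7.93 CPM in SS and 26.4, 31.9, 21.9 and 28.7 CPM with bFGF in LacZ and 12.9, 10.2, 16.6 and 6.90 CPM in SS and 21.3, 27.2, 24.6 and 20.7 CPM with bFGF in iCre. In neither vector did the groups overlap, and Cdk1 was the only G2/M gene of which this held in LacZ. It rose by 1.01 ± 0.26 in iCre (edgeR adjusted p = 0.0394) and by 1.04 ± 0.19 in LacZ with the block (adjusted p = 0.00144, against 0.0511 without). With the other factors it held 8.46 to 16.3 CPM over the 8 IL-1b libraries and 7.58 to 13.5 CPM over the 8 TGFb libraries. Its partner Ccnb1, cyclin B1, was at 5.42, 5.52, 16.3 and 2.15 CPM in SS and 19.7, 26.0, 13.3 and 28.8 CPM with bFGF in LacZ and at 5.90, 2.31, 10.6 and 1.48 CPM in SS and 12.8, 22.9, 17.9 and 18.4 CPM with bFGF in iCre. Number 3 of LacZ SS exceeded number 3 with bFGF, and the iCre groups did not overlap. With the block Ccnb1 rose by 2.05 ± 0.50 and 2.20 ± 0.50 (adjusted p = 0.00895 and 0.00684), against adjusted p = 0.199 and 0.137 without. It held 0.985 to 12 CPM over the 8 IL-1b libraries and 1.95 to 6.14 CPM over the 8 TGFb libraries. Ccna2, cyclin A2, which acts from S phase into mitosis, had 6.64, 4.07, 17.9 and 1.65 CPM in SS and 23.3, 33.0, 16.7 and 25.8 CPM with bFGF in LacZ and 6.67, 1.75, 10.9 and 1.20 CPM in SS and 15.7, 23.7, 20.8 and 14.0 CPM with bFGF in iCre, and number 3 of LacZ SS was again above number 3 with bFGF. Its blocked rise was 2.23 ± 0.48 and 2.23 ± 0.49 (adjusted p = 0.00429 and 0.00501), and its range was 1.29 to 12.4 CPM over the 8 IL-1b libraries and 1.66 to 6.19 CPM over the 8 TGFb libraries.

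Mki67, with the levels given above, rose with the block by 2.25 ± 0.53 in LacZ and 2.57 ± 0.53 in iCre (edgeR adjusted p = 0.00722 and 0.00349), and gave 0.262 and 0.133 without. In LacZ number 3 the SS library was above the bFGF library of that number. Top2a, the topoisomerase that untangles sister chromatids, was at 25.9, 17.7, 64.1 and 10.9 CPM in SS and 76.0, 97.6, 51.6 and 99.3 CPM with bFGF in LacZ and at 21.4, 8.35, 41.3 and 11.0 CPM in SS and 51.4, 82.3, 68.6 and 71.1 CPM with bFGF in iCre. It rose with the block by 1.81 ± 0.39 and 2.0 ± 0.39 (adjusted p = 0.00429 and 0.00247), and iCre groups did not overlap. With the other factors Top2a held 11.5 to 46.3 CPM over the 8 IL-1b libraries and 9.59 to 25.0 CPM over the 8 TGFb libraries. Plk1, a kinase of mitotic entry and spindle function, had 5.12, 4.26, 16.6 and 2.51 CPM in SS and 19.6, 27.8, 13.0 and 24.3 CPM with bFGF in LacZ and 4.93, 1.45, 8.76 and 1.51 CPM in SS and 12.6, 24.0, 16.8 and 14.5 CPM with bFGF in iCre. With the block it rose by 2.06 ± 0.47 and 2.38 ± 0.48 (adjusted p = 0.00584 and 0.00275), with iCre groups again apart, and held 0.985 to 11.3 CPM over the 8 IL-1b libraries and 1.24 to 6.86 CPM over the 8 TGFb libraries.

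Birc5, survivin, part of the complex that corrects chromosome attachment, was at 2.69, 2.34, 6.05 and 1.18 CPM in SS and 7.98, 12, 5.65 and 11.0 CPM with bFGF in LacZ and at 2.91, 0.932, 4.25 and 0.838 CPM in SS and 7.97, 11.4, 7.98 and 7.50 CPM with bFGF in iCre. Its blocked rise was 1.91 ± 0.41 and 2.21 ± 0.41 (edgeR adjusted p = 0.00370 and 0.00176), and it held 0.846 to 5.62 CPM over the 8 IL-1b libraries and 0.732 to 2.61 CPM over the 8 TGFb libraries. LacZ groups overlapped and iCre groups did not. Cenpf, a kinetochore protein, had 7.72, 7.20, 26.0 and 2.01 CPM in SS and 26.3, 38.8, 21.2 and 48.4 CPM with bFGF in LacZ and 10.4, 1.94, 19.5 and 1.01 CPM in SS and 17.3, 29.2, 30.6 and 28.8 CPM with bFGF in iCre. It rose with the block by 2.31 ± 0.66 and 2.27 ± 0.66 (adjusted p = 0.0227 and 0.0272), with overlap in both vectors, and held 0.450 to 16.7 CPM over the 8 IL-1b libraries and 1.23 to 5.22 CPM over the 8 TGFb libraries. Foxm1 and Mybl2, the transcription factors of this class, were each called in 1 vector without the block. Foxm1 was at 8.55, 8.75, 18.4 and 8.47 CPM in SS and 21.0, 34.8, 16.9 and 27.5 CPM with bFGF in LacZ and at 10.3, 8.73, 13.9 and 8.49 CPM in SS and 18.4, 25.9, 21.7 and 20.1 CPM with bFGF in iCre. It rose in LacZ by 1.18 ± 0.29 (adjusted p = 0.0302), a call lost without LacZ SS numbers 1, 2 or 4 or LacZ bFGF numbers 1, 2 or 4 (adjusted p up to 0.150), and its iCre value was 1.06 ± 0.29 (adjusted p = 0.0550, and 0.00500 with the block). Foxm1 held 6.38 to 16.9 CPM over the 8 IL-1b libraries and 4.63 to 10.6 CPM over the 8 TGFb libraries. Mybl2 was at 1.52, 1.87, 3.50 and 1.51 CPM in SS and 6.63, 6.91, 3.25 and 4.03 CPM with bFGF in LacZ and at 1.37, 1.23, 2.11 and 1.03 CPM in SS and 4.98, 5.90, 4.68 and 2.28 CPM with bFGF in iCre. It rose in iCre by 1.63 ± 0.41 (adjusted p = 0.0338), without overlap, and in LacZ with the block by 1.40 ± 0.32 (adjusted p = 0.00554). Its range was 0.816 to 3.27 CPM over the 8 IL-1b libraries and 0.637 to 2.10 CPM over the 8 TGFb libraries.

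The other 10 G2/M genes behaved alike. They are Ccnb2 (cyclin B2), Cdc20 (activator of the anaphase-promoting complex), the checkpoint kinase Bub1 and its relative Bub1b, the Aurora kinases Aurka and Aurkb, the kinetochore motor Cenpe, the spindle motors Kif11 and Kif20a and the spindle assembly factor Tpx2. With the block their rises ran from 1.17 to 2.13 in LacZ and from 1.37 to 2.23 in iCre, and none passed without it. Kif20a shares 29.3% of its exon bases with Cdc23 on the other strand. Of the members described above, Ccne2, Ccna2 and E2f8 share 17.4%, 12.5% and 11.2% with Ints8, Exosc9 and Gm2788 on the other strand.

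**Figure D4:**
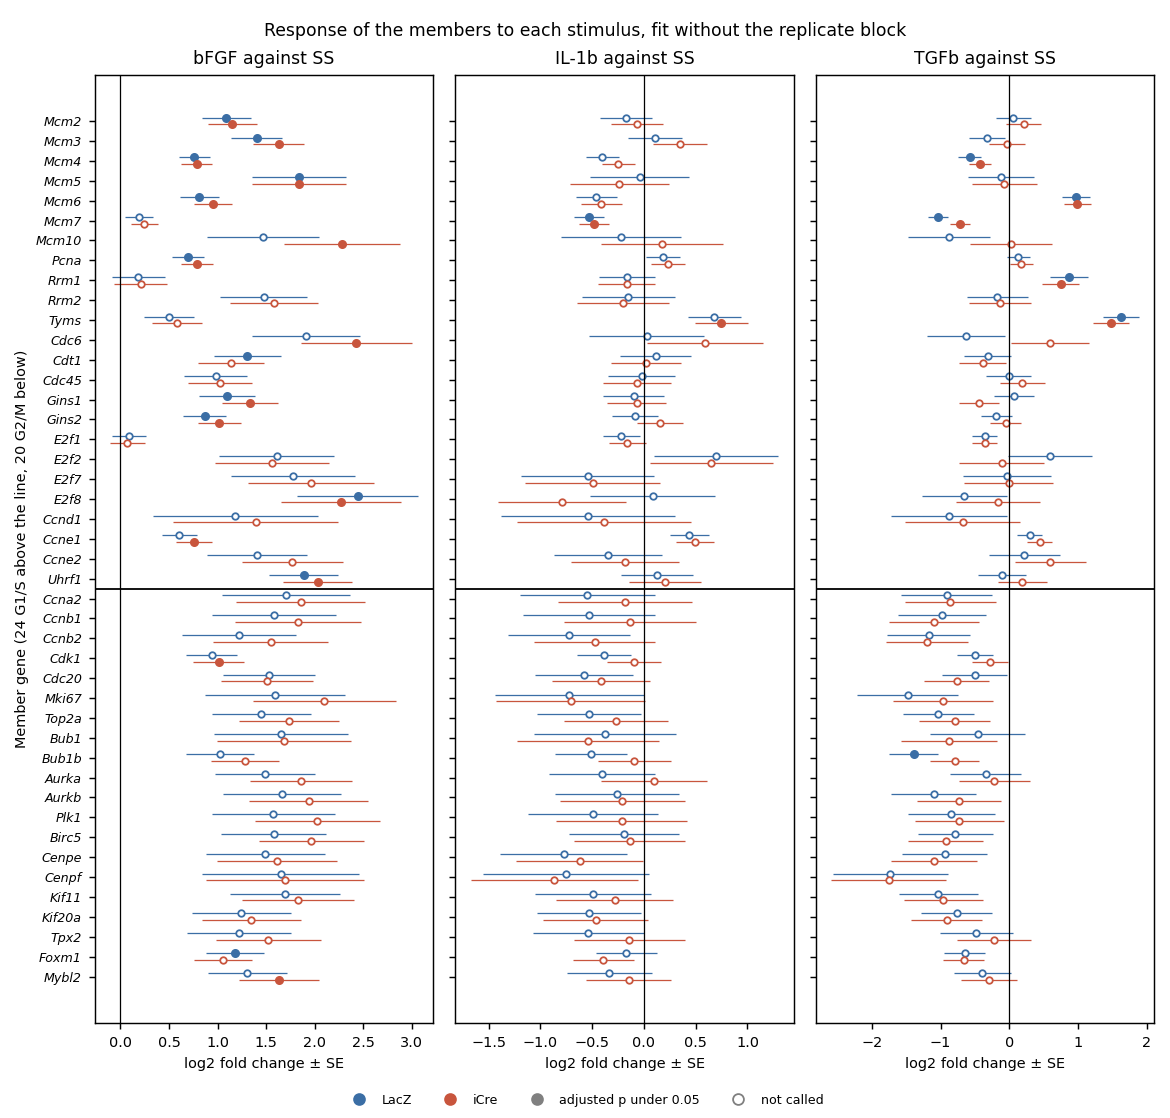
Points are log2 fold changes against SS with SE bars for each member in LacZ and iCre, from the fit without the replicate block, and filled points have an adjusted p under 0.05. bFGF points all lie right of 0, IL-1b and TGFb points of the G2/M genes lie left of 0 with 1 exception, and Mcm6, Rrm1 and Tyms lie right of 0 under TGFb, where Mcm4 and Mcm7 lie left.

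Set directly against the other factors, bFGF separated most members without the block. Against TGFb, 17 of 24 G1/S genes and 20 of 20 G2/M genes were higher with bFGF in LacZ (19.7% of all genes were higher and 40.8% called in either direction), and 16 and 20 in iCre (14.3% and 30.5%). Against IL-1b, 17 and 19 were higher in LacZ (6.91% of all genes, and 7.91% lower) and 18 and 20 in iCre (5.42%, and 5.97% lower), and no member was lower. The G2/M medians were 2.40 against TGFb and 1.97 against IL-1b in LacZ, and 2.62 and 2.02 in iCre. The G1/S medians were 1.21 and 1.23 in LacZ and 1.37 and 1.25 in iCre. Mki67 differed by 3.07 ± 0.77 between bFGF and TGFb in LacZ (edgeR adjusted p = 0.00227) and by 3.07 ± 0.77 in iCre (adjusted p = 0.00350), and E2f8 by 3.10 ± 0.64 in LacZ (adjusted p = 0.000387). The groups of bFGF and TGFb did not overlap for any G2/M gene in either vector, beside 38% of all genes in LacZ and 23.3% in iCre. The counts against IL-1b rested on single libraries: the LacZ G2/M count was 10 without bFGF number 2 and 8, 7 and 7 without IL-1b numbers 1, 2 and 4, its G1/S count was 11, 10 and 11 without IL-1b numbers 1, 2 and 4, and the iCre G2/M count was 10 without bFGF number 2 and 13, 7 and 8 without IL-1b numbers 1, 2 and 4. With the block the counts higher with bFGF than with IL-1b were 21 and 20 in LacZ and 19 and 20 in iCre. In that fit 12.6% (LacZ) and 10.8% (iCre) of all genes were higher.

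IL-1b against SS called few members. In LacZ Mcm7 fell and no member rose, where 8.13% of all genes fell and 11.1% rose. Its level went from 31.1, 29.7, 32.4 and 26.8 CPM in SS to 17.9, 19.1, 27.5 and 18.6 CPM, a log2 difference of -0.53 ± 0.14 (edgeR adjusted p = 0.00864). Number 3 was the highest IL-1b library and the one to overlap SS. In iCre Mcm7 fell again, by 0.48 ± 0.14 on the log2 scale (adjusted p = 0.0191, up to 0.0615 without IL-1b numbers 1, 2 or 4 or SS number 2), and Tyms rose by 0.75 ± 0.26 (adjusted p = 0.0474), where 6.84% of all genes fell and 8.88% rose. The Tyms call was lost with 18 of the 32 libraries left out singly, with adjusted p up to 0.136. Its levels were 10.8, 8.13, 11.2 and 8.46 CPM in SS and 17.8, 16.3, 18.7 and 11.9 CPM with IL-1b, without overlap. With the block 2 G1/S genes rose (Tyms and Ccne1) and 2 fell (Mcm4 and Mcm7) in LacZ, where 16.8% and 15.6% of all genes did, and in iCre 2 rose (Tyms and Ccne1) and 1 fell (Mcm7), where 15% and 14.1% did. Of the G2/M genes 0 of 20 were called in either vector, 0 at an unadjusted p under 0.05, 0 by DESeq2 and 0 with the block. In LacZ 5179 of all 16760 genes had an unadjusted p under 0.05. The G2/M median was -0.52 in LacZ and -0.24 in iCre, with 20 and 19 of 20 differences below 0. The within-number medians were -0.80, -0.44, -0.55 and -0.02 in LacZ and -0.27, 0.13, -0.49 and 0.06 in iCre.

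TGFb against SS split the G1/S genes, and the MCM subunits with them. Mcm6 (chr1:128331590-128359664) rose from 20.3, 20.3, 31.5 and 26.3 CPM in SS to 42.8, 45.2, 62.6 and 41.9 CPM in LacZ and from 18.0, 18.7, 23.5 and 28.7 to 46.3, 41.6, 54.7 and 33.5 CPM in iCre. The groups did not overlap, and the rises were 0.97 ± 0.20 (edgeR adjusted p = 0.000273) and 0.99 ± 0.20 (adjusted p = 0.000324). Mcm7 (chr5:138164583-138172422) fell in the same libraries, to 14.5, 12.2, 17.9 and 13.8 CPM in LacZ and from 27.9, 32, 29.5 and 30.8 to 16.4, 15.9, 18.3 and 22.4 CPM in iCre. No TGFb library reached an SS library, and the log2 differences were -1.04 ± 0.14 (adjusted p = 1.76e-06) and -0.72 ± 0.14 (adjusted p = 0.000241). Mcm4 (chr16:15623897-15637400) also fell, from 18.7, 18.4, 27.0 and 19.2 to 12.3, 11.0, 19.2 and 13.2 CPM in LacZ and from 19.7, 19.0, 21.0 and 24.1 to 14.0, 15.6, 16.8 and 15.7 CPM in iCre, with log2 differences of -0.58 ± 0.16 (adjusted p = 0.00450) and -0.43 ± 0.16 (adjusted p = 0.0343). Number 3 of LacZ TGFb reached into the SS range, and the iCre call was lost without SS number 4 or TGFb numbers 1 or 2 (adjusted p up to 0.117). The remaining subunits were not called: Mcm2 at 0.06, Mcm3 at -0.33 and Mcm5 at -0.12 in LacZ, with SE of 0.25 to 0.48. Mcm6, which rose with bFGF as well, stood under bFGF at 42.9, 53.8, 34.8 and 41.1 CPM in LacZ, with a bFGF minus TGFb difference of -0.16 between them (adjusted p = 0.553).

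The genes of deoxynucleotide supply split as well. Tyms (chr5:30058202-30073617) rose from 9.37, 7.76, 14.7 and 8.72 CPM in SS to 31.8, 39.5, 29.3 and 24.2 CPM with TGFb in LacZ and from 10.8, 8.13, 11.2 and 8.46 to 31.3, 37.8, 27.2 and 11.2 CPM in iCre, where number 4 lay just above the highest SS library. The rises were 1.62 ± 0.26 (edgeR adjusted p = 1.44e-05) and 1.48 ± 0.26 (adjusted p = 6.80e-05). Rrm1 (chr7:102441695-102469771) rose from 83.3, 77.4, 91.0 and 61.2 to 163, 158, 149 and 99.0 CPM in LacZ, without overlap, and from 77.0, 68.4, 97.5 and 45.5 to 159, 110.3, 164 and 50.6 CPM in iCre, where number 4 was lowest in both conditions and lay inside the SS range. The iCre call was lost without SS numbers 1, 2 or 4 or TGFb numbers 1 or 3 (adjusted p up to 0.132). Its rises were 0.86 ± 0.27 (adjusted p = 0.0113) and 0.75 ± 0.27 (adjusted p = 0.0320). Rrm2, the other subunit of the same enzyme, had 7.07, 5.02, 10.2 and 5.34 CPM with TGFb in LacZ, within its SS range, and a log2 difference of -0.17 ± 0.45 (adjusted p = 0.774). Tyms and Rrm1 were accordingly lower with bFGF than with TGFb in LacZ, with differences of -1.12 and -0.68 (adjusted p = 0.00106 and 0.0481, where 21.1% of all genes were lower), and Tyms in iCre (difference -0.90, adjusted p = 0.00910, 16.2% of all genes). The Rrm1 call was lost in 21 of 32 single leave-outs (adjusted p up to 0.110) and the iCre Tyms call without iCre TGFb number 2 (adjusted p = 0.0580).

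In all, 3 G1/S genes rose with TGFb and 2 fell in each vector, the same 5 genes, where 23.4% of all genes rose and 22.9% fell in LacZ and 20.2% and 18.1% in iCre. Groups did not overlap for 4 G1/S genes in each vector, beside 41.4% (LacZ) and 30.3% (iCre) of all genes. The share of G1/S genes called was thus below that of all genes. With the block 3 rose and 4 fell in LacZ (28.1% and 30.3% of all genes), the added ones being E2f1 (-0.35, adjusted p = 0.00362) and Ccnd1 (-0.84, adjusted p = 0.0168). In iCre 4 rose and 4 fell with the block (25.1% and 26.5%), with Ccne1 among those that rose. Without iCre TGFb number 1, 3 G1/S genes were called in iCre. In LacZ the calls of Mcm4, Mcm6, Mcm7, Rrm1 and Tyms held with any 1 library left out. IL-1b against TGFb was the direct comparison of these factors, and Mcm6, Rrm1 and Tyms were lower with IL-1b in both vectors (-1.43, -1.02 and -0.94 in LacZ, where 20.6% of all genes were lower, and -1.40, -0.91 and -0.73 in iCre, where 16.8% were and 31.2% were called in either direction), and Mcm7 was higher in LacZ (0.51, 18.5% of all genes higher). Without iCre TGFb number 1 or number 3, 1 G1/S gene was called in iCre, and the iCre Tyms call was also lost without IL-1b numbers 1, 2 or 4 or TGFb number 2.

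The G2/M genes stood below SS with TGFb in each of 20 fold changes in both vectors, with medians of -0.88 in LacZ and -0.83 in iCre beside -0.06 and -0.05 over all genes. In LacZ 1 of 20 fell, below the 22.9% of all genes that did. It was Bub1b (chr2:118598211-118641591), which went from 13.6, 11.2, 20.4 and 5.67 CPM to 4.47, 3.40, 7.03 and 4.54 CPM, and number 4 of SS lay inside the TGFb range. Its log2 difference was -1.39 ± 0.36 (edgeR adjusted p = 0.00239). In iCre 0 fell in edgeR, where 18.1% of all genes did, 3 at an unadjusted p under 0.05 and 1 by DESeq2, and Bub1b went from 10.6, 6.97, 12.4 and 4.91 to 5.37, 4.66, 5.62 and 4.42 CPM (-0.80 ± 0.35, adjusted p = 0.0760). With the block 5 fell in LacZ (Bub1b, Foxm1, Cdk1, Mki67 and Top2a) and 1 in iCre (Foxm1, -0.64, adjusted p = 0.0310), where 30.3% and 26.5% of all genes fell. Mki67 had 11.2, 3.99, 22.1 and 9.58 CPM with TGFb in LacZ and 11.0, 8.75, 14.1 and 3.53 CPM in iCre, and its blocked difference in LacZ was -1.23 ± 0.53 (adjusted p = 0.0488). The differences again varied by number: the LacZ medians were -0.75, -0.87, -1.33 and 0.39 in numbers 1 to 4, and the iCre medians -0.82, -0.03, -1.45 and -0.03. The LacZ count was 5 without SS number 4, 3 without TGFb number 3, and 2 without SS number 1 or IL-1b number 3, and the iCre count was 2 without SS number 4 and 1 without LacZ IL-1b number 3.

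The lists that follow stand beside the shares of all genes called. With bFGF 1.64% rose and 0.919% fell in LacZ and 1.44% and 0.752% in iCre, with IL-1b 11.1% and 8.13% in LacZ and 8.88% and 6.84% in iCre, and with TGFb 23.4% and 22.9% in LacZ and 20.2% and 18.1% in iCre. Of 40 further replication genes, 6 rose and 0 fell with bFGF in LacZ and 11 and 0 in iCre. With the block 23 and 26 rose, where 7.02% (LacZ) and 6.56% (iCre) of all genes did. Fen1, the flap nuclease of lagging strand synthesis, rose by 0.91 ± 0.20 in LacZ (edgeR adjusted p = 0.0137), and Chaf1a, a histone chaperone, by 0.67 ± 0.17 (adjusted p = 0.0342). With TGFb 6 of the 40 rose and 9 fell in LacZ and 4 and 6 in iCre, with IL-1b 0 rose and 4 fell in LacZ and 0 and 1 in iCre. The counts with TGFb were at or below the shares of all genes. Orc2, of the origin recognition complex, rose with TGFb (0.55 ± 0.12, adjusted p = 0.000478), and Lig1, DNA ligase I (-1.21 ± 0.21, adjusted p = 4.88e-05), and Rfc1, the large subunit of the clamp loader (-0.56 ± 0.08, adjusted p = 2.31e-06), fell. In iCre Dut, the dUTPase that guards thymidine supply, rose by 1.37 ± 0.36 (adjusted p = 0.00357). Of 40 further genes of spindle, kinetochore and cytokinesis, 5 rose with bFGF in LacZ and 9 in iCre, and 34 and 37 with the block. In neither vector did any fall with bFGF. With TGFb 0 rose and 7 fell in LacZ and 0 and 4 in iCre, and with IL-1b 0 rose and 2 fell in LacZ and 0 and 1 in iCre, both below the shares of all genes. With the block 1 rose and 11 fell with TGFb in each vector, where 28.1% of all genes rose and 30.3% fell in LacZ and 25.1% and 26.5% in iCre. The condensin gene Ncaph rose with bFGF (1.30 ± 0.30, adjusted p = 0.0232) and fell with TGFb (-1.05 ± 0.31, adjusted p = 0.00677) in LacZ. Smc4, its partner in condensin, fell with TGFb and with IL-1b (-0.51 and -0.59, adjusted p = 0.000697 and 0.000523).

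Of 10 CDK inhibitor and pocket protein genes, 2 rose and 2 fell with TGFb in LacZ and 2 and 1 in iCre, near the 46.3% (LacZ) and 38.3% (iCre) of all genes called in either direction. Cdkn2b (p15), an inhibitor of the cyclin D kinases, rose by 1.42 ± 0.24 in LacZ (edgeR adjusted p = 2.32e-05) and 1.11 ± 0.23 in iCre (adjusted p = 0.000513). Cdkn1a (p21) rose by 0.50 ± 0.12 and 0.34 ± 0.12 (adjusted p = 0.00149 and 0.0271), from 474 ± 42.9 to 671 ± 70.6 CPM in LacZ (mean ± SD, n = 4). Rbl2 (p130), the pocket protein of resting cells, fell, with log2 differences of -1.0 ± 0.09 and -0.83 ± 0.09 (adjusted p = 3.23e-09 and 1.13e-07), and Cdkn1b (p27) fell in LacZ (-0.87 ± 0.28, adjusted p = 0.0117) and, with the block, in iCre (-0.60, adjusted p = 0.000213). Cdkn1c (p57) was at -3.75 ± 1.57 in LacZ (adjusted p = 0.0528, and 3.44e-05 with the block), with a wide SE. Cdkn2a, Cdkn2c, Cdkn2d, Rb1 and Rbl1 were not called with TGFb in LacZ without the block, at 0.19, -0.68, -0.08, -0.26 and -0.12, and of these Cdkn2c fell with the block (-0.71, adjusted p = 0.00205). With bFGF 0 of the 10 were called in LacZ in edgeR and Rbl2 fell in iCre (-0.39 ± 0.09, adjusted p = 0.0227). In LacZ 3 had an unadjusted p under 0.05, as had 2760 of all 16760 genes. With the block Rbl1 rose (0.86, adjusted p = 0.00415) and Rbl2 and Cdkn1b fell (-0.28 and -0.41). In that fit 7.02% of all genes rose and 5.2% fell. With IL-1b Cdkn2b rose in LacZ (0.71 ± 0.23, adjusted p = 0.0331) and Rbl2 fell in iCre (-0.27 ± 0.09, adjusted p = 0.0401). With the block 1 rose and 5 fell with IL-1b in LacZ, where 16.8% of all genes rose and 15.6% fell. In iCre 0 rose and 2 fell with the block, where 15% and 14.1% of all genes did.

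Of 17 other cyclin, CDK and E2F regulator genes tested, 1 rose with bFGF in each vector, Ccnd3 in LacZ and Cdk2 in iCre (0.43 and 0.46, edgeR adjusted p = 0.0495 and 0.0307). With TGFb 6 rose and 3 fell in LacZ and 5 and 3 in iCre, and with IL-1b 2 rose and 2 fell in LacZ and 2 and 1 in iCre. TGFb called 46.3% of all genes in LacZ and 38.3% in iCre, and IL-1b 19.2% and 15.7%. Myc, an inducer of growth genes, rose with TGFb by 1.82 ± 0.27 and 1.43 ± 0.27 (adjusted p = 5.71e-06 and 0.000152) and with IL-1b by 1.09 and 0.90 (adjusted p = 0.00452 and 0.0200). The E2F partner genes parted: Tfdp1 rose with TGFb in LacZ (0.55 ± 0.10, adjusted p = 5.23e-05) and Tfdp2 fell (-1.0 ± 0.12, adjusted p = 1.79e-07).

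iCre was compared with LacZ to ask whether recombination of Pkm changed these genes. In edgeR 0 of 44 members were called in SS, bFGF, IL-1b or TGFb, in their average, or in the difference of any response between the vectors. All genes gave 0% in each condition and in each difference of responses and 0.107% in the average. At an unadjusted p under 0.05 stood 1 G1/S gene under TGFb and 0 members elsewhere, and DESeq2 called 0. The G2/M genes nevertheless lay lower in iCre on average, 20 of 20 with a median log2 difference of -0.39, and the G1/S genes 16 of 24 with -0.08, beside 0.01 over all genes. Plk1 had an average difference of -0.56 ± 0.32 (adjusted p = 0.781) and Mki67 of -0.58 ± 0.36 (adjusted p = 0.800). With a block for each pair of libraries of the same condition and number, 7 G2/M genes fell (16 of 20 at an unadjusted p under 0.05). Of all 16760 genes 538 fell and 444 rose, 5.86% called in either direction. The 7 were Ccnb2 (-0.48 ± 0.09, adjusted p = 0.00572), Kif20a (-0.44 ± 0.09, 0.00892), Plk1 (-0.55 ± 0.12, 0.0141), Cenpe (-0.46 ± 0.11, 0.0193), Cdc20 (-0.35 ± 0.10, 0.0392), Tpx2 (-0.37 ± 0.10, 0.0420) and Birc5 (-0.37 ± 0.11, 0.0485). No G1/S gene was called there, and 6 of 24 had an unadjusted p under 0.05. That fit takes 16 pairs as separate although 4 of them share each number. With counts summed over the conditions for each number and vector, 0 members were called, where 0.0298% of all genes were called. In that fit 18 of 20 G2/M and 5 of 24 G1/S genes had an unadjusted p under 0.05. The block on the number alone also called 0 members, with 4 G2/M and 3 G1/S genes at an unadjusted p under 0.05. Unadjusted counts were not made over all genes in any of these blocked or summed fits. The members' unadjusted counts therefore have no share of all genes to be read against.

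Within pairs the direction varied. The median G2/M difference in numbers 1 to 4 was -0.01, -1.0, -0.57 and -0.41 in SS, -0.55, -0.29, 0.36 and -0.65 with bFGF, 0.28, -0.26, -0.68 and -0.35 with IL-1b and -0.08, 0.04, -0.63 and -0.79 with TGFb. Number 3 with bFGF and number 1 with IL-1b were above 0, for 20 and 19 of 20 genes. Ccnb2 and Kif20a were lower in iCre in 14 of 16 pairs, and Plk1, Mki67, Cenpe, Cdc20 and Tpx2 in 13. The median average difference of leukocyte markers was 0.19, with 11 of 12 above 0 and 0 called. Their part in the G2/M difference was not tested.

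**Figure D5:**
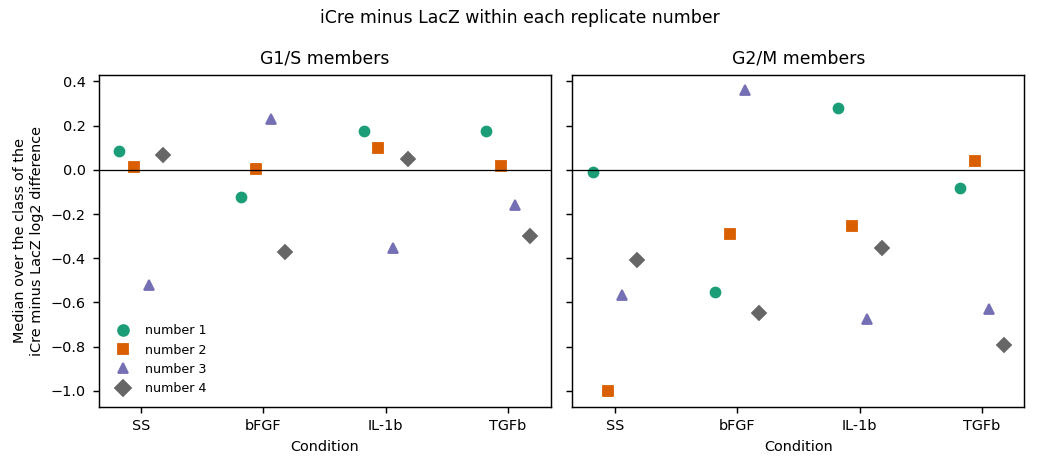
Each point is the median iCre minus LacZ log2 difference over the genes of a class in a pair of libraries with the same condition and replicate number. G1/S medians scatter on both sides of 0, and 13 of 16 G2/M medians lie below 0, with the pairs of number 3 under bFGF, number 1 under IL-1b and number 2 under TGFb above it.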

How the data were processed

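Poly(A) RNA of 32 libraries of cultured mouse cardiac fibroblasts was isolated and made into libraries per the labels' protocols. The deposited values are raw counts per gene, which the authors made with HTSeq 0.10.0 on GRCm38/mm10 after FastQC 0.10.1, per the submitters' processing notes. For the aligner, the annotation release and the strand setting, the record is: not given in the sources used here. Of 55414 IDs, 52081 matched a symbol of GENCODE M21, with 99.75% of counts. Counts were analysed with edgeR 4.0.16 in R 4.3.3 (filterByExpr by group, TMM, robust quasi-likelihood test, 8 group means, 24 residual degrees of freedom), with Benjamini-Hochberg adjustment over 16760 genes at 0.05, all two-sided. Log2 CPM used a prior count of 2, and SE is the fold change over the root of F. Alternatives were DESeq2 1.42.0, the replicate number as a block, total scaling, no filter and left-out libraries. Deviations from the group means of same-numbered libraries correlated at 0.153 to 0.857 in all 64 pairs. The same was not computed for libraries of different numbers. Libraries of the same number were treated as matched, and blocked values are given for some of the calls that the block changed. Members, gene lists and the genes named by role were chosen with earlier results of these data known. Any member may be named, values per library are given for those chosen by role and for those called against the direction of their class, and others were named by smallest p within their list. The Map3k7 check and the settings without number 3, or with the block and a number left out, were added after seeing the data. The 10 members without a promoter entry are Tpx2, Ccne2, Ccnd1, Gins1, Kif20a, Gins2, Aurkb, Mcm4, Ccna2 and Foxm1.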

Additional observations from a re-analysis of the deposited data

Results flagged for a closer look

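In 26 of 240 groups of 4 values, the highest or lowest library stood apart from the other 3, with a gap to its neighbour, as a ratio to the group's range, above Dixon's critical value. For normally distributed values chance alone gives about 1 in 20 such groups. The CPM were tested without taking logs and the genes share libraries, so that rate may not hold here. The values tested were those of 28 members and the class averages. Number 3 was the high library in most of them. In LacZ with IL-1b these were Ccna2 (12.4 CPM beside 2.17 to 3.08, ratio 0.911), Cdk1 (16.3 CPM beside 8.46 to 9.76, ratio 0.835), Cenpf (16.7 CPM beside 1.91 to 3.92, ratio 0.864), Foxm1 (16.9 CPM beside 6.82 to 8.22, ratio 0.86), Mcm5 (13.3 CPM beside 2.58 to 4.12, ratio 0.856), Mcm7 (27.5 CPM beside 17.9 to 19.1, ratio 0.877), Mki67 (52.3 CPM beside 7.21 to 10.1, ratio 0.936), Pcna (46.2 CPM beside 34.7 to 35.9, ratio 0.896), Top2a (46.3 CPM beside 11.6 to 12.2, ratio 0.984) and Uhrf1 (12.4 CPM beside 5.26 to 6.05, ratio 0.89). In LacZ SS they were Ccne1 (8.77 CPM beside 5.55 to 5.78, ratio 0.93), E2f8 (3.71 CPM beside 0.610 to 0.824, ratio 0.931), Foxm1 (18.4 CPM beside 8.47 to 8.75, ratio 0.972), Mcm4 (27.0 CPM beside 18.4 to 19.2, ratio 0.914) and Uhrf1 (13.8 CPM beside 3.98 to 4.52, ratio 0.944). In LacZ with TGFb they were Cdk1 (13.5 CPM beside 8.40 to 9.25, ratio 0.835), Mcm6 (62.6 CPM beside 41.9 to 45.2, ratio 0.843) and Top2a (25.0 CPM beside 9.64 to 12.1, ratio 0.842), and the G1/S class average there had a highest library with a ratio of 0.895. In iCre number 3 was high for E2f8 (2.33 CPM beside 0.893 to 1.09, ratio 0.862) in SS, and for Ccne1 (9.85 CPM beside 8.01 to 8.19, ratio 0.904) and Mcm7 (25.0 CPM beside 19.9 to 20.7, ratio 0.845) with IL-1b. Other numbers stood apart for Cdt1 (6.20 CPM beside 1.98 to 2.59, ratio 0.856) in iCre SS number 4, Birc5 (11.4 CPM beside 7.50 to 7.98, ratio 0.877) in iCre bFGF number 2, Uhrf1 (8.13 CPM beside 4.91 to 5.41, ratio 0.843) in iCre TGFb number 2 and, as the lowest, Cenpf (17.3 CPM beside 28.8 to 30.6, ratio 0.865) in iCre bFGF number 1. The cause was not tested.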

How the results depend on the processing

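Counts of called members depended on the processing, and no called member changed direction. Of 198 calls of single members, 0 were lost with the replicate block, 0 with DESeq2, 8 with total counts as the only scaling, 36 with no filter on low counts, 14 without number 4 and 11 without number 3. The settings without number 3, and the block with a number left out, were chosen after seeing the data. With the replicate block the counts of G1/S and G2/M genes were 20 and 20 for bFGF against SS in LacZ and 20 and 20 in iCre, 4 G1/S for IL-1b against SS in LacZ, 5 G2/M for TGFb against SS in LacZ, 8 and 1 in iCre, and 1 G2/M for IL-1b against TGFb in LacZ, and the pair replicate block gave 7 for the average of iCre against LacZ. In the other comparisons the block moved no count by over 1.5 times. With DESeq2 the G2/M counts were 6 and 12 for bFGF against SS (LacZ, iCre), 2 and 1 for TGFb against SS and 1 for IL-1b against TGFb in LacZ, and 2 G1/S genes were called for IL-1b against SS in LacZ. With total scaling, which moved the median of all genes for TGFb against SS from -0.06 to -0.26 in LacZ and from -0.05 to -0.27 in iCre, the G2/M counts were 2 and 4 for bFGF against SS, 3 and 2 for TGFb against SS and 1 for IL-1b against TGFb in LacZ, and 1 G1/S gene was called for IL-1b against SS in iCre. With no filter they were 6 and 0 (G1/S, G2/M) for bFGF against SS in LacZ, 1 G2/M in iCre, 1 G1/S for IL-1b and 3 G1/S for TGFb against SS in iCre, and 11 and 12 G2/M for bFGF against IL-1b (LacZ, iCre). Without number 3 they were 18 and 17 for bFGF against SS in LacZ and 18 G2/M in iCre, 2 and 1 G2/M for TGFb against SS (LacZ, iCre) and 1 G1/S for IL-1b against TGFb in iCre. Without number 4 they were 20 and 6 for bFGF against SS in iCre, 2 G1/S for IL-1b against SS in LacZ, 2 and 2 G2/M for TGFb against SS, 12 G2/M for bFGF against IL-1b in LacZ and 1 and 1 G2/M for IL-1b against TGFb. The block without number 3 gave 20 and 20 for bFGF against SS in both vectors, 4 G1/S for IL-1b against SS in LacZ, 8 and 2 for TGFb against SS in LacZ and 8 and 1 in iCre. The block without number 4 gave 19 and 10 for bFGF against SS in LacZ and 21 and 19 in iCre, 3 G1/S for IL-1b against SS in LacZ, 8 and 3 G2/M for TGFb against SS, 1 G2/M for IL-1b against TGFb in LacZ and 5 and 1 in iCre. Leaving out 1 library at a time, the counts ran from 2 to 18 (G1/S) and 0 to 13 (G2/M) for bFGF against SS in LacZ and from 2 to 15 and 0 to 12 in iCre, from 1 to 4 G1/S for IL-1b against SS in LacZ and 0 to 3 in iCre, from 1 to 5 G2/M for TGFb against SS in LacZ, from 3 to 6 and 0 to 2 in iCre, from 10 to 18 and 7 to 20 for bFGF against IL-1b in LacZ and 7 to 20 G2/M in iCre, from 0 to 1 G2/M for IL-1b against TGFb in LacZ and from 1 to 3 G1/S in iCre. The cause of these changes was not tested. There were 4 libraries a group, and the SS libraries lay far apart. Whether the fit without the block missed differences of G2/M genes for that reason was not tested. For bFGF against SS in LacZ the G2/M median was 1.51 and 19 of 20 genes had an unadjusted p under 0.05. Of all 16760 genes, 2760 had one. Of the G2/M genes 1 was called.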
